A study of Rattus norvegicus with 3 samples.

Results

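The genes described here make, break down and carry gamma-aminobutyric acid (GABA). They were listed by name for their roles, by a rule that uses no measured value, although earlier results of these data were known when the list was made. The list held 9 genes, of which 8 had a probe that could be matched by accession. Those 8 genes were covered by 9 of the 30367 probes. Of the 14188 genes that could be tested in the whole series, 6 were members of the list. Of these 14188, 8917 had a symbol and the rest were known by accession or probe name only, and shares of all genes below count both kinds.

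Kidney RNA of male Sprague-Dawley rats was compared on 3 arrays with 2 colours each. The control rats drank water without added GABA and were labelled with Cy3 (green), and the G200 rats drank water with 200 ppm GABA and were labelled with Cy5 (red). All rats were 5 weeks old on arrival, had 1 week to acclimate, ate the same standard diet and, in G200, received GABA for 3 weeks. The tissue was labelled as a part of the kidney free of tumor. Red stood for G200 on every array, with 0 dye swaps, so that a dye effect and an effect of GABA cannot be told apart in any ratio below. The control signals of the 3 arrays differed about as little as repeated spots within an array did (13 of 1022 repeatedly spotted probes differed, against 835 of 1032 in G200). The control was therefore counted as 1 sample, and the test leaves out its own spread.

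GABA is best known as the main inhibitory transmitter of the brain, where it is made from glutamate and loaded into vesicles. Breakdown passes through succinic semialdehyde to succinate and so into the citrate cycle, a route called the GABA shunt, which runs in mitochondria of many tissues. Kidney tubules also hold carriers that take up GABA or betaine, an osmolyte that protects cells of the medulla from salt.

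Across all genes, limma called 1639 higher (11.6%) and 3679 lower (25.9%) in G200 at an adjusted p under 0.05. Among the 9 listed genes 0 were called higher and 2 were called lower, namely Abat, whose mean turned to 0.01 when the arrays were centred on their medians in place of loess, and Slc32a1. At an unadjusted p under 0.05 the count was also 2, against 6966 of all 14188 genes. With 25.9% of all genes called lower, 2 of 6 tested members is close to what the whole array gave with loess. With median centring the split turned, to 4991 genes higher and 1247 lower, with 2 members higher and 1 lower. Among genes well above background in both colours 24.3% were called lower, and 1 of the 4 members measured that way was called, Abat. The other called member, Slc32a1, passed the filter through the control colour alone, which favours genes that are lower in G200, so it lends no support to a fall of the group.

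**Figure D1:**
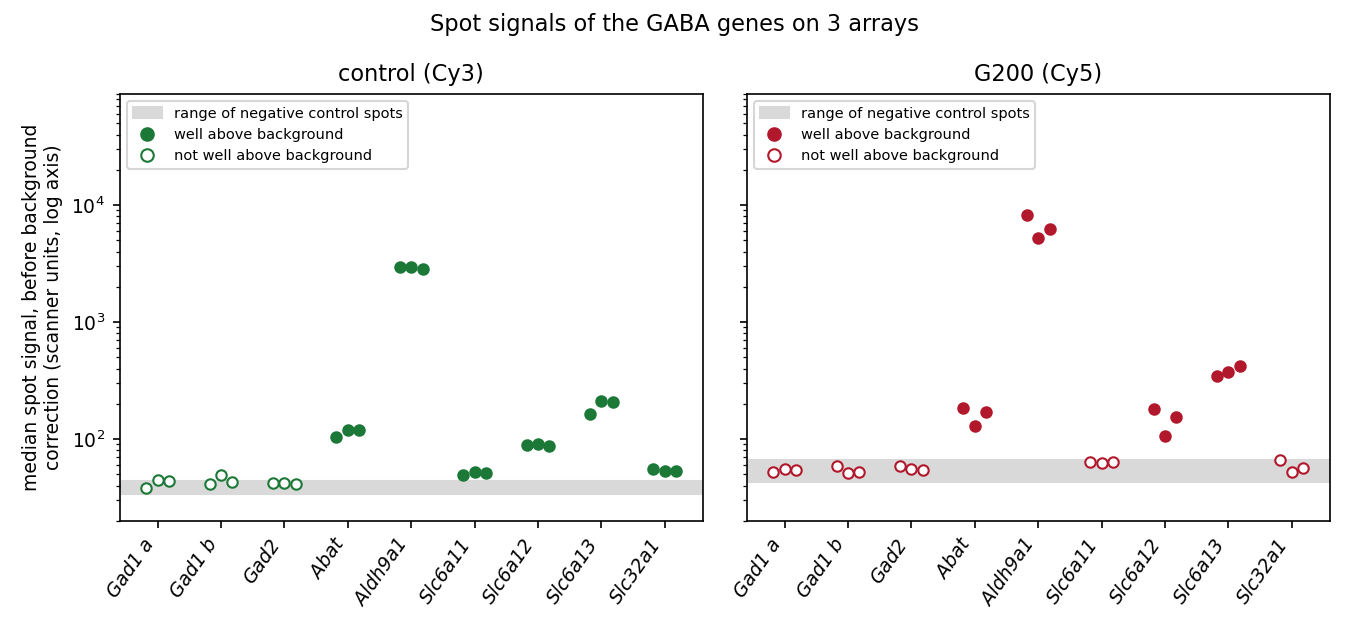
Median signal of each spot of the 8 genes with a probe, before background correction, in scanner units on a log axis, with 3 arrays per probe side by side and 1 spot per probe on each array (a and b are the 2 probes of Gad1). Filled points were well above background, open points were not, and the grey band spans the 153 negative control spots of all arrays. Levels of different probes cannot be compared with each other.

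The synthesis enzymes were at the limit of the array. Gad1 and Gad2 code for the glutamate decarboxylases, which turn glutamate into GABA. Neither was well above background on any of the 3 arrays in either colour. The spots of the 2 Gad1 probes read 38 to 49 in control and 51 to 59 in G200. Gad2 read 41.5 to 42.5 in control and 54.5 to 58.5 in G200. Negative control spots, which match no rat transcript, read 34 to 44 in control and 43 to 66 in G200. All of the Gad1 and Gad2 readings of G200 thus lay within the range of these blanks, and in control only 2 readings of Gad1, 44.5 and 49, lay above it. No ratio is given for either gene, and no bound on the difference between the groups could be set.

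Abat codes for GABA transaminase, the mitochondrial enzyme that starts the breakdown of GABA. Its spot read 104.5, 120 and 119.5 in control and 183.5, 130 and 169.5 in G200 on replicates 1, 2 and 3. These were clear signals in both colours on every array. After background correction and loess normalization its log2 ratio of G200 over control was -0.39, -0.28 and -0.34. All 3 arrays gave a negative value, and the arrays differed little from each other. The mean was -0.34 ± 0.056 (SD, n = 3), a level of 79.2% of control, with a 95% interval of -0.50 to -0.18 and a limma adjusted p of 0.0113. The direction depended on the dye normalization: after centring each array on its median the mean of Abat was 0.01 (limma adjusted p = 0.951), and without any dye normalization it was 0.36 (limma adjusted p = 0.147). These scalings also moved the median of all genes, from -0.05 to 0.27 and 0.62. Relative to that median Abat stood at -0.29 with loess and at -0.26 with either of the other scalings. The call was also lost without replicate 3, where the mean was -0.34 with a limma adjusted p of 0.0937.

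The shift of Abat was shared by many genes. In mean log2 ratio, 18.3% of all genes tested lay below it with loess. The share was 28.8% with median centring or without dye normalization, and 9.73% with no filter on dim probes. The 3 genes nearest to Abat over the 3 arrays by Euclidean distance were Tbl3, Naa10 and Tex10. Since 215 genes lay within a distance of 0.1, the pattern is not particular to Abat.

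Aldh9a1 codes for an aldehyde dehydrogenase that can form GABA from an aldehyde of the polyamine route and also takes part in carnitine synthesis. Its spot was bright, reading 2965, 2986 and 2843 in control and 8292, 5204 and 6220 in G200. The log2 ratios were -0.16, 0.17 and -0.01 on replicates 1, 2 and 3. The arrays lay on both sides of 0, with a mean of 0.00 ± 0.163 (SD, n = 3) and a limma adjusted p of 0.998. The 95% interval, -0.20 to 0.20, leaves room for a change of that size in either direction. After median centring the mean was 0.78 and past the threshold (limma adjusted p = 0.0172). Aldh5a1, the succinic semialdehyde dehydrogenase that completes the GABA shunt, had no probe matched to it and was not analysed here.

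**Figure D2:**
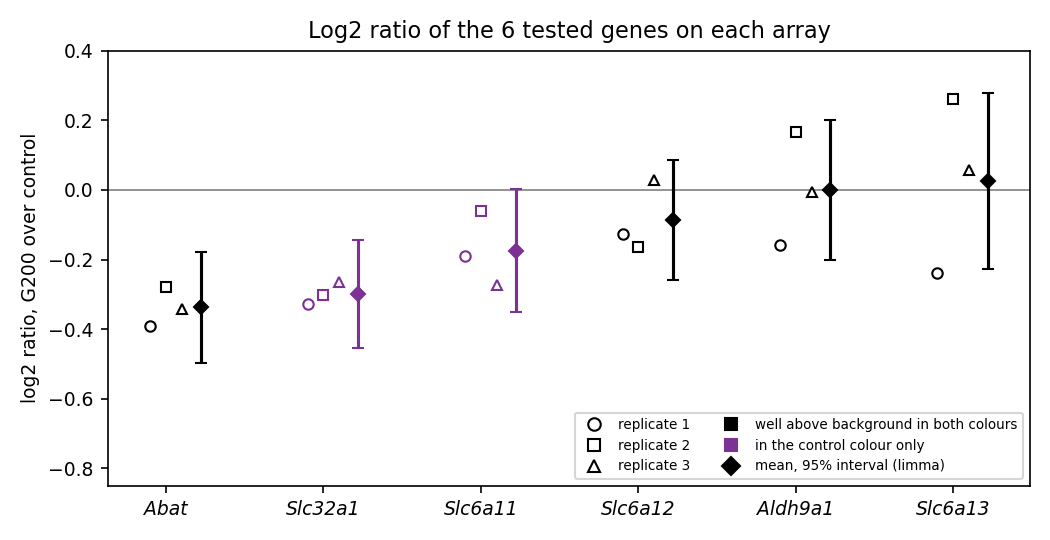
Log2 ratio of G200 over control for the 6 tested genes on each of the 3 arrays (open symbols), with the mean and its 95% interval from limma (diamonds). With loess the intervals of Abat (0.01 with median centring) and Slc32a1 lie below 0, those of the other 4 genes reach 0 or cross it, and genes in purple were well above background in the control colour only.

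Among the carriers, Slc32a1 codes for the transporter that loads GABA and glycine into synaptic vesicles. Its spot read 55, 53 and 53 in control, above all negative controls, and 66.5, 52 and 57 in G200, where it was well above background on 0 of 3 arrays and only the reading of replicate 1 lay above the highest negative control, 66. Its log2 ratios were -0.33, -0.30 and -0.26, all negative and close together. The mean was -0.30 ± 0.032 (SD, n = 3), with a limma adjusted p of 0.0154. With an offset of 0 in the background correction the mean was -1.07, with median centring -0.43 and with the deposited ratio -1.89. Since G200 gave no measured level, the mean rests on a G200 signal at background, and no bound on the difference is given. With loess its 95% interval, -0.45 to -0.14, reached up to 90.6% of control. The difference is open to dye bias and does not hold without dye normalization, where the mean was -0.08 (limma adjusted p = 0.737). Negative control spots, which carry no transcript, reached log2 ratios as low as -0.25, -0.21 and -0.29 on the same arrays, so the value of replicate 3 lay within their range. The call was lost without replicate 1 (mean -0.28, limma adjusted p = 0.0537) and without replicate 3 (mean -0.31, limma adjusted p = 0.1).

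Slc6a11 codes for a GABA transporter of the plasma membrane known mainly from glia. Its spot read 49.5, 52 and 51.5 in control and 64, 62 and 64 in G200, and it too was well above background in control alone. The log2 ratios of -0.19, -0.06 and -0.27 all lay within the range of the negative control spots. Their mean was -0.17 ± 0.108 (SD, n = 3), which did not pass the threshold (limma adjusted p = 0.104), and no bound is given. With the negative controls taken as the background, an alternative chosen after seeing the data, the mean of Slc6a11 was -0.08 and that of Slc32a1 was -0.25. With an offset of 0 in the background correction Slc6a11 passed the threshold, at -0.68 (limma adjusted p = 0.0403). With median centring its mean was -0.33, with the deposited ratio -0.51 and without dye normalization 0.02.

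Slc6a12 codes for the betaine and GABA transporter, which the kidney medulla uses to take up betaine under salt stress. Its spot read 89, 91.5 and 87 in control and 181, 107 and 154 in G200, well above background on every array. The log2 ratios were -0.13, -0.16 and 0.03. One array lay on the other side of 0, and the mean of -0.09 ± 0.101 (SD, n = 3) did not pass the threshold (limma adjusted p = 0.366, 95% interval -0.26 to 0.09). Its sign turned with median centring, to 0.19.

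Slc6a13 codes for a GABA and taurine carrier found in kidney and liver. Its spot read 162.5, 212.5 and 207 in control and 345.5, 375 and 423 in G200. The log2 ratios were -0.24, 0.26 and 0.06, the widest spread of the 6 tested members. Replicate 1 was low and replicate 2 high, and the mean of 0.03 ± 0.252 (SD, n = 3) did not pass the threshold (limma adjusted p = 0.854, 95% interval -0.23 to 0.28). After median centring it was 0.55 and past the threshold (limma adjusted p = 0.0185), and without replicate 2 it was -0.09. Of the 4 members measured in both colours, Abat had the lowest mean and Slc6a12, Aldh9a1 and Slc6a13 followed, with overlapping intervals for each pair of neighbours. With median centring the order was Abat, Slc6a12, Slc6a13 and Aldh9a1.

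**Figure D3:**
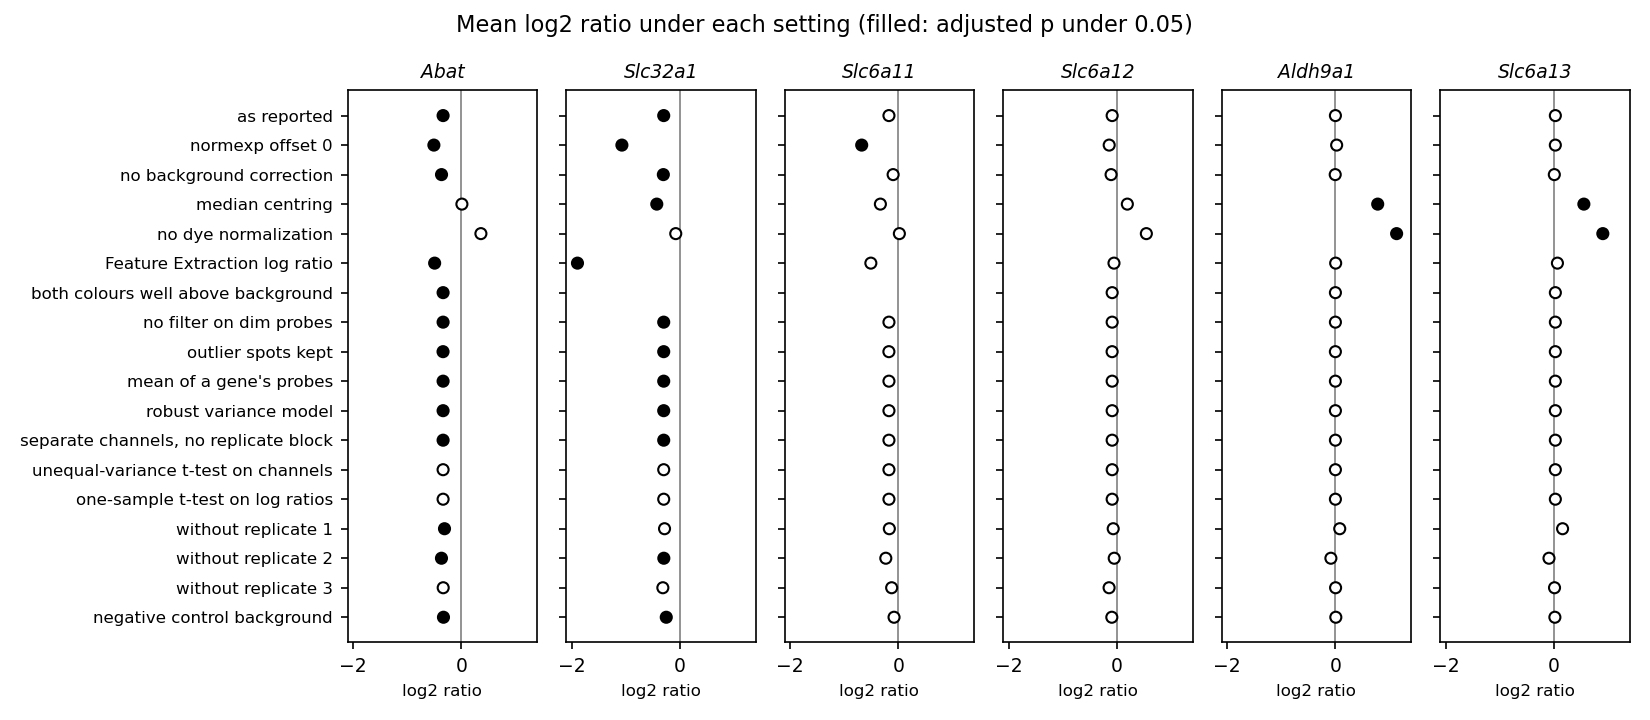
Mean log2 ratio of the 6 tested genes (1 panel each, same axis) as reported and under each of the 17 other settings, with filled points at a limma adjusted p under 0.05 (or that of the named test). Median centring and leaving out dye normalization moved Abat, Slc6a12, Slc6a13 and Aldh9a1 upward, and the panels of Slc32a1 and Slc6a11 have no point where both colours had to be above background.

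Genes around the members were read in 8 lists. No list was tested as a set, and the counts stand beside the shares of all genes given above and the median of all genes, -0.05. The list named exits of the GABA shunt had 7 of 11 tested genes higher and 0 lower, with a median of 0.23. It held enzymes of succinic semialdehyde and succinate, and also citrate cycle enzymes that lead to succinate. The latter, Sucla2, Suclg1, Suclg2 and Ogdh, are not exits of the shunt itself, so the count is not one of genes downstream of GABA breakdown. Sucla2, a subunit of succinyl-CoA ligase, was at 0.51, Suclg2, another subunit of that enzyme, at 0.40, and Sdha, the catalytic subunit of succinate dehydrogenase, at 0.38. On replicates 1, 2 and 3 Suclg2 was at 0.69, 0.33 and 0.17. The list lay above the median of all genes by 0.28 with loess, 0.75 with median centring and 0.34 with the deposited ratio. Proximal tubule markers lay above it by 0.22, 0.62 and 0.27 and thick ascending limb markers by 0.46, 0.61 and 0.67 in the same settings. The count of higher genes in the list was 2 without replicate 1, 3 without replicate 2 and 0 by limma without replicate 3, where the median was 0.22. Of all genes tested, 867, 1622 and 185 were called higher in the same fits. The count in the list was 2 with an offset of 0, 4 with the deposited ratio, 9 with median centring and 10 without dye normalization. In these settings 1522, 2150, 4991 and 8010 of all genes were called higher. Akr7a2, which reduces succinic semialdehyde, was at 0.37 and also higher. Ogdh, a part of the citrate cycle upstream of succinate, was at -0.21 with loess and 0.34 with median centring, and was called with neither.

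Glutamate supply had 3 of 10 tested genes higher and 3 lower, with a median of -0.02. Gls2, the glutaminase best known from liver, was at -1.40, Gpt, alanine transaminase, at -0.83, and Glul, glutamine synthetase, at 0.45. Without dye normalization Gpt stood at -0.04 and Gls2 at -0.56, and neither passed the threshold (limma adjusted p = 0.879 and 0.12), while Glul stayed past it. Gls2 was at -0.94, -1.53 and -1.73 on replicates 1, 2 and 3. The polyamine route had 1 of 10 higher, Odc1, ornithine decarboxylase, at 0.36, and 1 lower, Srm, spermidine synthase, at -0.25, which turned to 0.36 with median centring. Its median was -0.03.

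Vitamin B6 and related decarboxylases had 3 of 6 lower and 0 higher, with a median of -0.15. These were Ddc at -0.65, Pdxp at -0.53 and Hdc at -0.23, which code for aromatic amino acid decarboxylase, pyridoxal phosphatase and histidine decarboxylase. With median centring Pdxp stood at 0.04, Ddc at -0.09 and Hdc at -0.38, and Hdc was well above background in control alone, so that its value rests on a G200 signal at background. Carnitine synthesis had 1 of 4 lower, Bbox1, the last enzyme of that route, at -0.35, also measured in control alone, and a median of -0.03. With the deposited ratio Bbox1 stood at -2.39 and Hdc at -1.76. When both colours had to be above background, limma called 0 of 3 genes of carnitine synthesis (median 0.04), and 2 of 5 in the vitamin B6 list were lower (median -0.07).

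Betaine and osmolytes had 3 of 9 lower and 1 higher, with a median of -0.19. Bhmt, which uses betaine to methylate homocysteine, was at -1.60, Slc5a3, an inositol carrier, at -0.36, and Dmgdh, an enzyme of the later breakdown of betaine, at 0.25 (limma adjusted p = 0.0492). Bhmt was at -0.93, -1.85 and -2.02 on replicates 1, 2 and 3, and with median centring its mean was -0.86 and not past the threshold (limma adjusted p = 0.0744). With median centring Slc5a3 turned to 0.32 and Dmgdh, at 0.25, was not past the threshold (limma adjusted p = 0.16). Other aldehyde dehydrogenases had 2 of 11 higher, Aldh6a1 at 0.40 and Aldh18a1 at 0.25, and 1 lower, Aldh2 at -0.44, which turned to 0.30 with median centring. Aldh18a1 was well above background in G200 alone, a filter that favours a higher value there, and was not called with median centring (0.18, limma adjusted p = 0.214). The median of the list was 0.01. Of 4 tested amino acid carriers outside the member list 0 were called by limma, and Slc36a4 had the largest ratio in size, -0.24. Their median was 0.01.

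These counts and medians hold for loess, and median centring, which raised the median of all genes to 0.27, moved each list upward. Of all 14188 genes limma then called 4991 higher and 1247 lower. In the lists the limma counts were 4 higher and 2 lower for glutamate supply (median 0.41) and 6 higher and 0 lower for the polyamine route (0.45). They were 1 higher and 1 lower for vitamin B6 and related decarboxylases (0.16). Carnitine synthesis had 1 higher and 1 lower (0.26), betaine and osmolytes 2 higher and 0 lower (0.36), other aldehyde dehydrogenases 6 higher and 0 lower (0.445) and the other amino acid carriers 2 higher and 0 lower (0.37). Without replicate 3, limma called 0 genes of the vitamin B6 list, the polyamine route and carnitine synthesis. It called 0 higher and 2 lower in glutamate supply, and 0 higher and 1 lower in other aldehyde dehydrogenases. Of all genes 185 were then higher and 1433 lower. Betaine and osmolytes had 1 lower without replicate 1, with an offset of 0 and with the deposited ratio, where 2660, 3455 and 3178 of all genes were lower. Limma also called 0 genes of the polyamine route with an offset of 0. Without replicate 1 the median of betaine and osmolytes was -0.02 and that of glutamate supply -0.11, and without replicate 2 that of other aldehyde dehydrogenases was -0.11. The median of the vitamin B6 list was -0.26 without replicate 2, -0.096 without replicate 3 and -0.355 with an offset of 0.

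**Figure D4:**
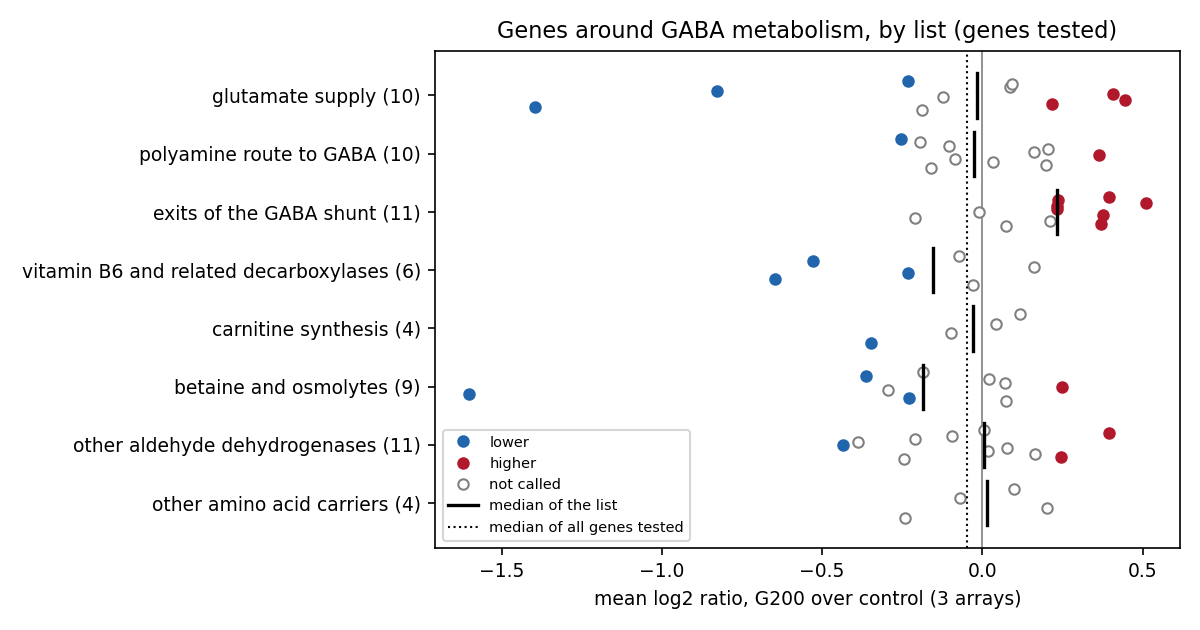
Mean log2 ratio of G200 over control for each tested gene of the 8 lists, with blue for called lower, red for called higher and open circles for not called, the median of each list as a bar and that of all genes as a dotted line. The list named exits of the GABA shunt, which includes citrate cycle enzymes, sits mostly above 0, while the lowest points are Bhmt and Gls2.

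The labelled tissue was checked against cell type markers. Of the proximal tubule list 10 of 11 genes were measured, with Kap the brightest, a median of 0.17 and 2 higher. The thick ascending limb had 5 of 5, with Umod the brightest, a median of 0.41 and 3 higher. Slc12a3 was the 1 gene tested of the distal convoluted tubule, at 1.23, -0.0032 and -0.20 on the 3 arrays and not called. Principal cells of the collecting duct had 6 tested and 0 called by limma, with Aqp2 the brightest and a median of 0.16. With median centring their median was 0.61, and Aqp2, Aqp3, Aqp4, Avpr2 and Scnn1g passed the threshold as higher. Intercalated cells had 4 tested, 1 higher and 1 lower, Slc4a1 the brightest and a median of 0.03. The inner medulla had 5 tested, 1 higher and 3 lower, and a median of -0.29, which turned to 0.35 with median centring. Its brightest gene, Aqp1, is not particular to the inner medulla and was the 1 called higher, at 0.41. Podocytes had 5 tested and 1 higher, with Podxl the brightest and a median of 0.36 (0.72, 0.06 and 0.24 on replicates 1, 2 and 3). Endothelium had 5 tested and 1 lower, with Kdr the brightest and a median of -0.05 (0.14 with median centring). Stroma had 5 tested and 1 higher, with Col3a1 the brightest and a median of 0.05. With median centring the median of stroma was 0.80, and Col1a1, Col1a2, Col3a1, Pdgfrb and Dcn passed the threshold as higher. In that setting 4991 of all 14188 genes were called higher. The medians were then 0.89 for the proximal tubule, 0.88 for the thick ascending limb, 0.66 for intercalated cells and 0.62 for podocytes. Among these lists Slc5a1, Pvalb, Calb1, Slc26a4 and Lum were not well above background, and Synpo was so in control alone.

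Genes of neurons, the cells where Gad1, Gad2 and Slc32a1 are best known, were mostly not measured. Of the 12 neuron markers with a probe, 9 were not well above background, and the 3 tested, with Nefm the brightest, gave 0 calls and a median of 0.07. Of the pancreatic islet markers, cells that also make GABA, 5 of 6 were not well above background. The remaining gene, Ins1, was at -0.03 and not called.

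By their median with loess, liver markers moved far more than any member measured in both colours. All 16 tested genes of that list were lower in G200, with a median of -2.85 over the arrays and of -1.52, -3.01 and -4.09 on replicates 1, 2 and 3. Their summed level was 149300, 147600 and 171900 in control and 41990, 11680 and 4456 in G200, and Ttr was the brightest. Of the 18 genes listed, Tat and Cps1 were not well above background, and Tdo2 was well above it in control alone. The median of the list was -2.14 with median centring and -1.79 without dye normalization. With median centring Apoh, Fgg, Tdo2 and Cyp2e1 did not pass the threshold (limma adjusted p = 0.0689, 0.0696, 0.0842 and 0.158). Abat is also expressed in liver, as are Gls2, Gpt, Bhmt and Slc6a13. These are examples and not all the listed genes that liver expresses. The other members measured in both colours, Aldh9a1 and Slc6a12, were at 0.00 and -0.09 with loess and were not called. Like the liver list, Gls2 and Bhmt were nearest to 0 on replicate 1 and farthest from it on replicate 3. Gpt was also farthest on replicate 3 but nearest to 0 on replicate 2, and Slc6a13 lay on both sides of 0. Ddc, at -0.09, -0.90 and -0.95 on replicates 1, 2 and 3, had the order of the liver list, as had Bbox1, Hdc and Slc25a22. Of these, Hdc and Bbox1 were measured in control alone, and Hdc was at -0.26 and -0.28 on replicates 2 and 3. The remaining genes called lower in the 8 lists, Pdxp, Srm, Aldh7a1, Slc5a3 and Aldh2, did not have that order. Aldh3b1, which was not called, also had it. An order of 3 arrays can arise by chance, and the share of all genes with it was not counted, so nothing is concluded from it. Abat was at -0.39, -0.28 and -0.34 on replicates 1, 2 and 3 with loess. With the deposited ratio it was at -0.48, -0.49 and -0.51. No order of the arrays is read from values this close. The part of the liver genes in the ratio of Abat or of any gene of the 8 lists was not tested. In whole tissue, fewer cells of a type and less RNA per cell cannot be told apart.

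**Figure D5:**
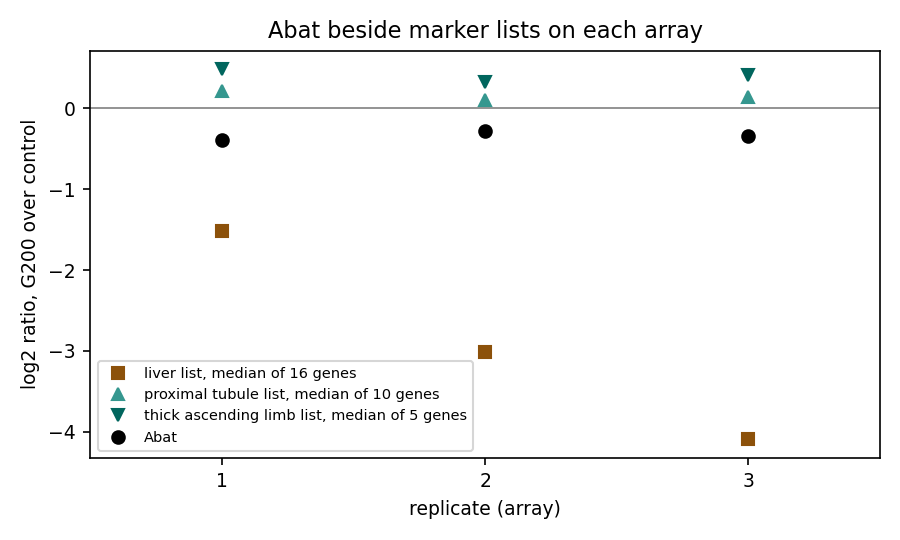
Log2 ratio of G200 over control on each array for Abat and for the median of the liver, proximal tubule and thick ascending limb markers. The liver median ran from -1.52 to -4.09 between arrays, while Abat, with loess, stayed between -0.39 and -0.28.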

How the data were processed

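The authors scanned the arrays and deposited Feature Extraction tables that give the median intensity of every spot beside that of the surrounding background. The deposited tables also hold a log10 ratio of red over green, used here as an alternative after conversion to log2, and other flags, which the authors' software set for spots well above background and for outliers. With limma 3.58.1 in R 4.3.3 the background was corrected (normexp, offset 50), loess was run on every array to balance the dyes, and flagged spots were left out. A probe was kept if the same colour was well above background on each of the 3 arrays, and the brightest probe stood for a gene. On replicates 1, 2 and 3, 59.8%, 62.7% and 62.3% of spots were well above background in control and 63%, 56.6% and 61% in G200, and the number of arrays limits the precision. Mean log2 ratios were tested against 0 by lmFit and eBayes (two-sided), and p-values were adjusted by Benjamini-Hochberg over every gene tested. The labels pair control and G200 by array, which the ratio already takes into account. Symbols came from the RefSeq table of GRCr8 (60.4% of probes matched). The arrays shared 1 slide and 1 scan. The members and lists were chosen with earlier results of these data known. Named genes were all members, up to 3 called genes of largest ratio in size per list, or the largest 1 where none was called (with Akr7a2 and Ogdh added after their values were seen), the brightest gene per marker list and the 3 nearest to Abat. On simulated arrays a first requirement on the share of changed genes called was not met, and it was replaced by requirements on sizes, false calls and genes of low spread. There the steps returned the sizes of change put in and few false calls, but missed changed genes whose arrays varied widely. A gene not called may therefore still have changed. At equal gain few genes were changed, equally up and down, and no dye effect was put in. The few false calls there do not bear on calls that turn with the dye normalization. Where the simulated red gain was raised, sizes of dim genes were overstated.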

Additional observations from a re-analysis of the deposited data

How the results depend on the processing

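Of 17 other settings, 12 left Abat lower and past the threshold, with adjusted p over all settings from 0.00782 to 0.951, and 11 of 16 left Slc32a1 so, from 0.00332 to 0.737. The split of calls turned with the dye normalization. With loess 1639 genes were higher and 3679 lower (5318 in all), with median centring 4991 and 1247, and with no dye normalization 8010 and 304 (8314 in all). With median centring the mean log2 ratio was 0.0103 for Abat, 0.781 for Aldh9a1, 0.193 for Slc6a12 and 0.553 for Slc6a13. With no dye normalization it was 0.361 for Abat, 1.13 for Aldh9a1, 0.0183 for Slc6a11, 0.544 for Slc6a12, 0.903 for Slc6a13 and -0.0759 for Slc32a1. With offset 0 Slc6a11 was at -0.677 and past the threshold. The sign of Aldh9a1, near 0, turned to -0.0032 without background correction and to -0.000344 with outlier spots kept. When both colours had to be above background, 1 member was called, since Slc32a1 and Slc6a11 were then left out.

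The methods' t-test with unequal variances gave 4210 genes at an unadjusted p under 0.05 and 380 after adjustment, and a t-test of the ratios alone gave 4476 and 2. Both gave 2 members unadjusted and 0 after adjustment, with Abat at -0.337 and Slc32a1 at -0.298 as before. With separate channels and no replicate block, 4103 genes and 2 members were called. That fit and the test with unequal variances take the 3 control channels as separate samples, although they varied like repeated spots. Leaving out 1 replicate gave 1618 (without replicate 3) to 4973 genes and 0 (without replicate 3) to 2 members, with Abat from -0.367 to -0.311, Slc6a11 from -0.232 to -0.124, Slc6a12 from -0.144 to -0.0493, Aldh9a1 from -0.0831 to 0.0801, Slc6a13 from -0.0909 to 0.16 and Slc32a1 from -0.314 to -0.283. Fewer arrays lower the power of the test, and other causes were not tested. Signals near background limit Gad1, Gad2, Slc6a11 and Slc32a1.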
